A study of Mus musculus with 3 samples.

Results

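The genes described here are H60b, Klra4, Klra7, Klra16, Trim12a, Nnt, Wdfy1, Aph1b, Acyp2 and Gcnt1. They are 10 genes that had been picked because their signals on these arrays looked like differences in strain background, so the values below describe why they were picked and support nothing. Probes were assigned to a gene through the RefSeq transcript accession printed on the array. This gave 19 of the 39429 probes and 9 of the 10 genes, out of 20886 named genes in all. The gene table lists 1 transcript accession for Nnt, and no probe carries it. Probes under accessions that the table does not name were not assigned to any gene, and a probe for Nnt may be among them, so Nnt is not analysed here. The members with probes comprised 3 genes with a single probe (H60b, Klra4 and Acyp2) and 6 with several. The 10 genes lie on 8 chromosomes, namely 1, 6, 7, 9, 10, 11, 13 and 19, and Cdkn2a, the gene that encodes p16, lies on chromosome 4.

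The cells were mouse tail-tip fibroblasts, skin connective-tissue cells grown from cut tail tips. They received Oct4, Sox2, Klf4 and c-Myc, the 4 factors used to turn adult cells into pluripotent cells, and RNA was taken on day 8, when the cells are intermediates of the process. The young WT group came from wild-type donors aged 2 months, the old WT group from wild-type donors aged 22 months, and the old p16-/- group from donors aged 22 months that lack the cell-cycle inhibitor p16. Each group has 1 array, so no difference below has a replicate check and no test was made. All donors came from one mouse repository, per the labels' protocols, and the labels name no strain for any group. Any difference of strain, donor, culture or genotype between 2 arrays therefore cannot be told apart.

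Several of the 10 genes belong to families whose gene content or sequence is known to differ between inbred mouse strains. The Klra genes encode the Ly49 receptors, lectin-like proteins with which natural killer (NK) cells read major histocompatibility complex (MHC) class I molecules, and strains carry different sets of them. H60b belongs to a family of cell-surface ligands of the activating NK receptor NKG2D. Nnt, the mitochondrial enzyme that makes NADPH from NADH, is disrupted in one widely used substrain of black mice. On an oligonucleotide array, an absent transcript, a transcript lacking the probed exon and a sequence mismatch under the probe all give a low signal and cannot be told apart from 1 probe. For that reason every probe of each gene is given separately below. Levels are the scanner's processed signal in linear units with the scanner software's error for that spot, and log2 ratios compare levels scaled to each array's 75th percentile. Signals of different probes are not comparable as amounts.

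A probe was read as present where the scanner software marked it well above background. Where only 1 of the 2 arrays passed, the difference is a lower limit, given as "at least", against the lowest signal of any probe well above background on the dimmer array. That lowest signal stood at 55.4 in young WT, 35.7 in old WT and 46.9 in old p16-/-. A gene was counted by the level of its brightest probe, and as well above background where any of its probes was. It was called apart at 2-fold, a log2 ratio of 1.

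Between old WT and young WT, 3 of the 8 genes that could be compared were at least 2-fold higher in old WT (Klra4, Klra7 and Klra16) and 1 was lower (Wdfy1). Over all genes, 2.94% were that much higher and 3.17% lower, 6.12% in all. Between old p16-/- and old WT, 2 of 9 were higher in old p16-/- (H60b and Wdfy1), 5 were lower (Klra7, Trim12a, Aph1b, Acyp2 and Gcnt1) and 2 lay within 2-fold. Over all genes, 5.91% were higher and 6.61% lower there, 12.5% in all. Between old p16-/- and young WT, 4 of 9 were higher (H60b and the 3 Klra genes), 4 were lower (Trim12a, Aph1b, Acyp2 and Gcnt1) and Wdfy1 lay within 2-fold. Over all genes, 6.34% were higher and 6.97% lower there, 13.3% in all. With normexp background correction, which adds an offset of 50 to every signal, Klra7 dropped under 2-fold between old p16-/- and young WT (a log2 ratio of 0.89). That correction also shrank the largest differences, by the amounts given with each gene. The genes were picked for such differences, so nothing is read from these counts. The comparisons share arrays and are not independent of each other.

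**Figure D1:**
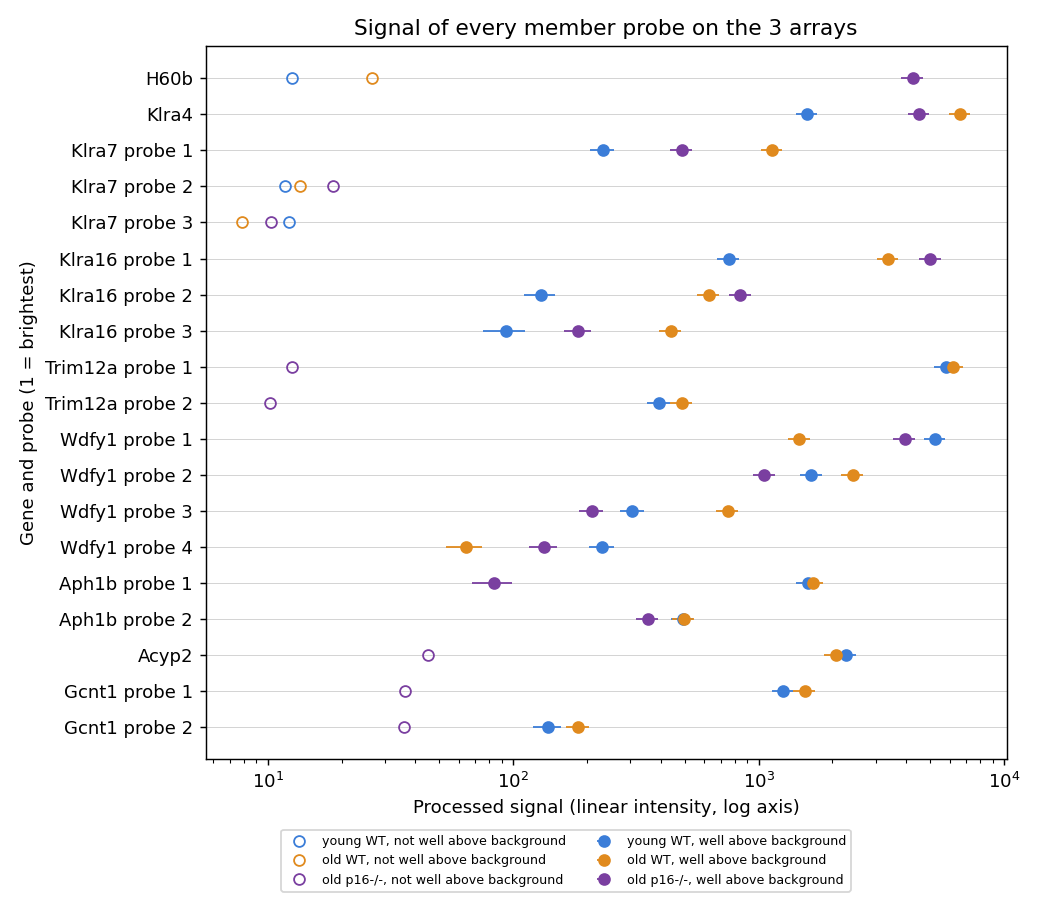
Processed signal (log axis) of each of the 19 probes on the 3 arrays, 1 row per probe, with the probes of a gene numbered from the brightest. Filled points were well above background and carry the scanner software's error, and open points were not. The old p16-/- points of both Trim12a probes, Acyp2 and both Gcnt1 probes are open at signals of 45.1 or less, and the H60b point is filled in old p16-/- alone.

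**Figure D2:**
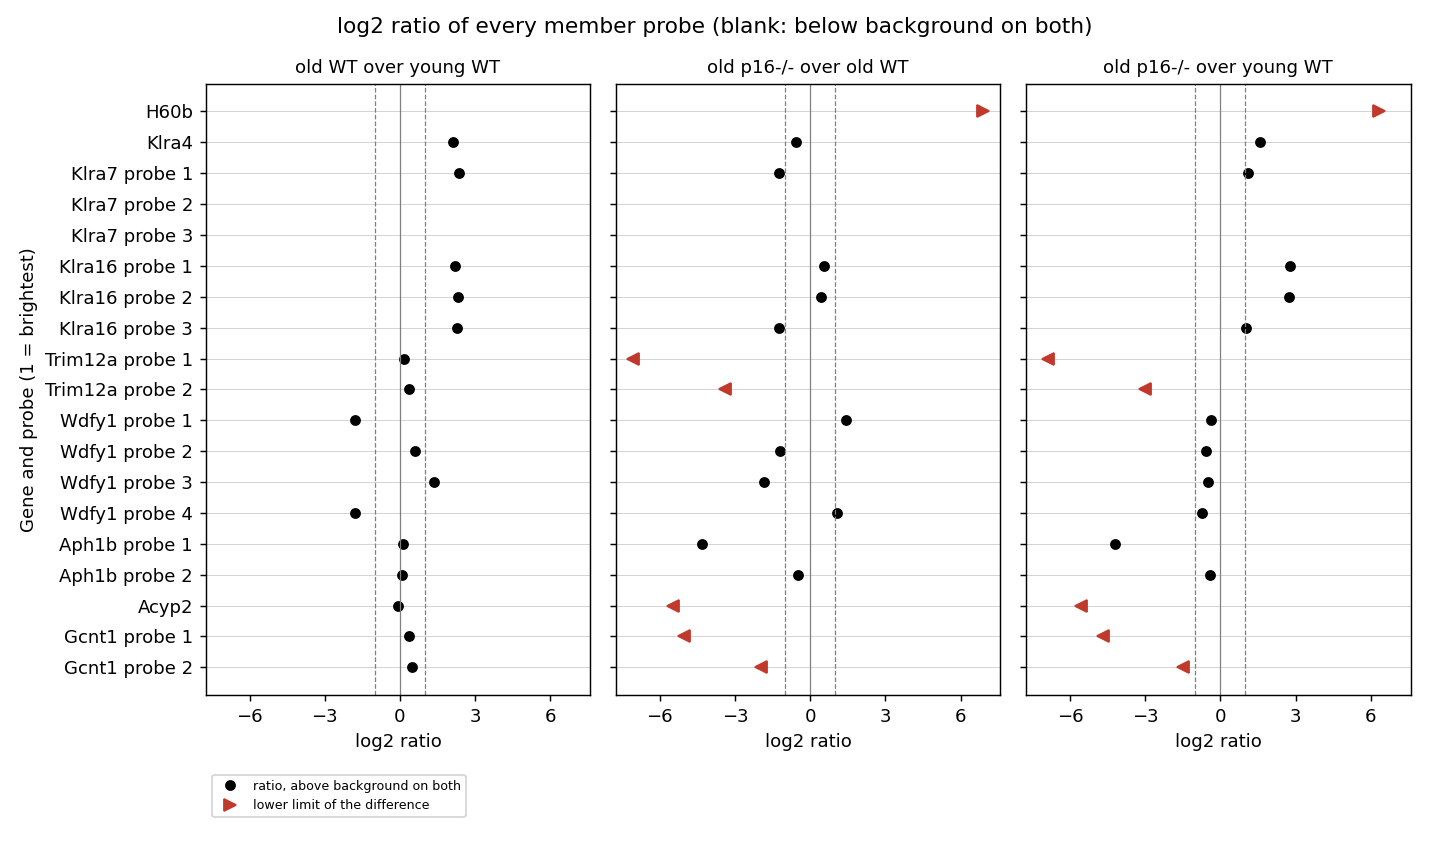
The log2 ratio of each probe in the 3 comparisons, with dashed lines at 2-fold. Dots are ratios between 2 arrays that were both well above background and triangles are lower limits of the difference. The largest limits are those of Trim12a probe 1 (-7.05) and H60b (6.89) between old p16-/- and old WT.

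H60b was detected in old p16-/- cells alone. Its single probe read 12.5 ± 12.5 in young WT, 26.7 ± 8.4 in old WT and 4244 ± 425 in old p16-/-, and was not well above background on either wild-type array. The signal in old p16-/- was at least 119-fold higher than in old WT and at least 79.6-fold higher than in young WT. With normexp the log2 limit against old WT was 5.37 in place of 6.89. With 1 probe, no other part of the transcript was read.

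Of the 11 NKG2D ligand and receptor genes listed for comparison, 6 had a named probe. Raet1e, another NKG2D ligand, read 2421 in young WT, 2977 in old WT and 1753 in old p16-/-, within 2-fold in each comparison. Ulbp1, also a ligand of NKG2D, read 98.6 in old p16-/- and was not well above background on the wild-type arrays, which put it at least 2.76-fold higher than in old WT. H60c, the receptor gene Klrk1 and its signalling partner Hcst stayed at background throughout. Besides H60b, which was picked for its difference, 1 of 2 list genes that could be compared between the old arrays was higher in old p16-/-. That gene, Ulbp1, was no longer at least 2-fold apart with normexp.

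The 3 Klra genes were all higher in old WT than in young WT, by like amounts. Klra4 encodes the activating receptor Ly49D. Its single probe read 1578 ± 158 in young WT, 6620 ± 662 in old WT and 4500 ± 450 in old p16-/-, so young WT was lowest by 4.37-fold against old WT. Old p16-/- lay within 2-fold of old WT, at a log2 ratio of -0.56, and 2.96-fold above young WT. The Klra4 probe was therefore well above background on all 3 arrays.

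Klra7 encodes the inhibitory receptor Ly49G and had 3 probes, of which 1 gave a signal. That probe read 231.7 ± 26.8 in young WT, 1135 ± 114 in old WT and 486.1 ± 49.9 in old p16-/-. Old WT was 5.11-fold above young WT and 2.34-fold above old p16-/-. The other two probes, with signals of 7.87 to 18.4, stayed at background throughout. One of those silent probes is assigned to the same transcript record as the probe with a signal, so probes of 1 record disagreed on every array, the wild-type arrays included.

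Klra16, an activating member of the family, had 3 probes that were all well above background on all arrays. The brightest read 755 ± 76.3 in young WT, 3365 ± 337 in old WT and 5011 ± 501 in old p16-/-. The second read 129.6 ± 18.7, 626.7 ± 63.2 and 843.7 ± 85.1 in the same order, and the third read 93.5 ± 18.3, 438.7 ± 45 and 184.5 ± 22.7. All 3 probes put old WT above young WT by nearly the same amount, with log2 ratios of 2.22, 2.33 and 2.29. Between the old arrays they parted. The first and second probes were higher in old p16-/- by log2 ratios of 0.57 and 0.42, whereas the third was lower at -1.25 (-0.96 with normexp). The third probe's old p16-/- to old WT ratio was close to that of the Klra7 probe with a signal (-1.23).

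The 5′ ends of Klra4 and Klra7 are shown because the signals of these clustered genes differed the same way between the wild-type arrays. Each window runs from 250 bases before to 50 bases after the annotated start, read 5′ to 3′ on the gene's strand, from the RefSeq promoter table of build GRCm38.p6. The windows are at chr6:130067222-130067521 (minus strand) for Klra4 and chr6:130233273-130233572 (minus strand) for the upstream of 2 Klra7 starts, and no base is marked in capitals.
Klra4: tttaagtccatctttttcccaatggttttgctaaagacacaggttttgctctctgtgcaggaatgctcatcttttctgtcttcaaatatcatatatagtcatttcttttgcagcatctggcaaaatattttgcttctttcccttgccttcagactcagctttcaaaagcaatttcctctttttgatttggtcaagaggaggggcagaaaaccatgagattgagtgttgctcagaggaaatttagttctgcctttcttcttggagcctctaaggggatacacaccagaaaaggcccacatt
Klra7: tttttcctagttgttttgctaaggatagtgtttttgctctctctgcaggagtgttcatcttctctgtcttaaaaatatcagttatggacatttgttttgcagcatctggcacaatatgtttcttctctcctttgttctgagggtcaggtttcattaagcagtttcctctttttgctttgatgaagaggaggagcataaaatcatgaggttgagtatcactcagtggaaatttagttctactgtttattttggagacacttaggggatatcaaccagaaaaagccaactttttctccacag
The Klra4 and Klra7 windows were identical at 230 of 312 aligned columns (73.7%), where columns that hold a gap count as not identical. The window of Klra4 matched those of the 2 starts of Klra8 at 86.0% and 57.7% of aligned columns, and Klra4 and the downstream Klra7 start shared 46.6%. Most of each window lies outside the transcript, so these values say nothing of what a probe binds. Near-identical Ly49 transcripts under one probe cannot be told apart, and probe sequences were not used here. No promoter window was found for Klra16 or H60b.

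Of the 23 listed Ly49 genes, 11 had a named probe and 8 were well above background on at least 1 array. In old WT against young WT, 3 of 6 that could be compared were at least 2-fold higher and 0 lower, with a median log2 ratio of 1.40, and the 3 are the members above. From old WT to old p16-/- the list split, with 2 of 8 higher (Klra5 and Klra9), 2 lower (Klra2 and Klra7) and a median of 0.0042. In old p16-/- against young WT, 5 of 8 were higher (4 with normexp), 1 was lower and the median was 1.35. Without the 3 members, 2 of 5 were higher and 1 was lower in each comparison with old p16-/-, and 0 of 3 were apart between the wild-type arrays. Over all genes the medians were within 0.03 of 0 in each comparison.

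Among the Ly49 genes that are not members, Klra2 read 620.6 in young WT and 626.4 in old WT, and was not well above background in old p16-/-, a difference of at least 13.4-fold from old WT. Klra5 read 196.6 in old p16-/- and was not well above background on either wild-type array, with a second probe at background everywhere. Klra6 read 70.0 in old p16-/- alone, with a limit of 0.97 on the log2 scale against old WT. Klra9 read 64.5 in old WT and 283.4 in old p16-/-, and was not well above background in young WT (38.9). The Klra1 probe was well above background on all 3 arrays, at 326, 498.5 and 338.1. Klra8, Klra10 and Klra17 stayed at background throughout. These signals are within the range in which spots of otherwise dim probes sometimes passed the background mark on these arrays, given with the spot measurements.

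Ly49 genes are known best from NK cells, and NK cell markers were measured beside them. Of 10 NK cell marker genes, 3 were well above background in young WT, 4 in old WT and 3 in old p16-/-. Their summed signals were 1798, 1833 and 1798. The markers Ncr1, Klrb1c, Klrd1, Klrk1, Il2rb and Gzma stayed at background on all 3 arrays. Nkg7 (1169, 1172 and 1180 in young WT, old WT and old p16-/-) and Prf1 (549.8, 491.6 and 527.8) were detected on every array at nearly level signals. Gzmb was detected in old WT (126.2) and old p16-/- (89.8) and Eomes in young WT (79.4) and old WT (42.7). The second probes of Nkg7 and Eomes stayed at background throughout. Tyrobp, the adaptor through which activating Ly49 receptors signal and which macrophages also carry, read 1747 in young WT, 336.1 in old WT and 12.9 in old p16-/-, the last not well above background. Tyrobp thus ran opposite to Klra4, Klra7 and Klra16 between the wild-type arrays. Tyrobp was the 1 of 5 listed Ly49 partner and class I ligand genes that was at least 2-fold lower in each of the 3 comparisons, and none was higher.

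**Figure D3:**
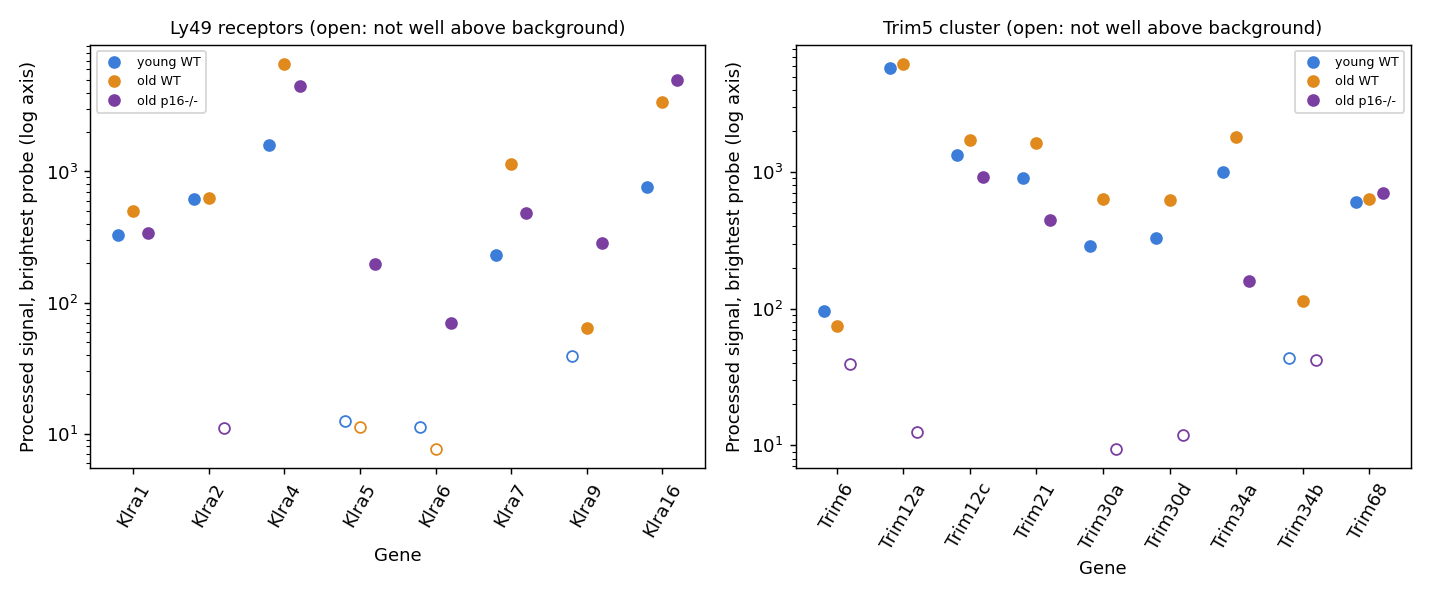
Processed signal (log axis) of the brightest probe of each Ly49 gene (left) and each gene of the Trim5 cluster (right) that was well above background on at least 1 array. Colours mark the arrays and open points were not well above background. Klra2, Trim12a, Trim30a and Trim30d have open points at signals of 12.5 or less in old p16-/-, while Trim12c and Trim68 have filled points on all 3 arrays.

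Trim12a was present on both wild-type arrays and not well above background on the old p16-/- array with either of its probes. It belongs to a group of genes related to Trim5, whose products restrict retroviruses and which are induced by interferon. The brighter probe read 5781 ± 578 in young WT, 6198 ± 620 in old WT and 12.5 ± 12.5 in old p16-/-. The dimmer read 393.7 ± 41.2 and 487 ± 49.3 on the wild-type arrays and 10.2 in old p16-/-. Old p16-/- was at least 132-fold lower than old WT by the brighter probe and at least 10.4-fold lower by the dimmer. With normexp the log2 limits were -5.64 and -2.50 in place of -7.05 and -3.38. The wild-type arrays lay within 2-fold, at log2 ratios of 0.16 and 0.37.

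Trim12c, a nearby gene of the same name stem, stayed present in old p16-/-. Its brightest probe read 1344 in young WT, 1730 in old WT and 917.9 in old p16-/-. Its 3 probes had log2 ratios of -0.92, -0.89 and -1.43 between old p16-/- and old WT. The start regions of both genes are shown because 1 gene was at background in old p16-/- and the other was not. They come from the RefSeq promoter table of build GRCm38.p6, at chr7:104315446-104315745 (minus strand) and chr7:104353300-104353599 (minus strand). Capitals mark a match on the opposite strand to the core of the interferon-stimulated response element (ISRE), searched alone on both strands as GAAA, any 2 bases and GAAA again.
Trim12a: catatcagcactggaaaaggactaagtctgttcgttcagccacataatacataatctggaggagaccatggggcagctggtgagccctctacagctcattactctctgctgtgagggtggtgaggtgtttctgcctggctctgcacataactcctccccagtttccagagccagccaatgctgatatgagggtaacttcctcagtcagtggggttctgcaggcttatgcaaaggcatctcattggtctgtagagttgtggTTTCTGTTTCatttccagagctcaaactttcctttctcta
Trim12c: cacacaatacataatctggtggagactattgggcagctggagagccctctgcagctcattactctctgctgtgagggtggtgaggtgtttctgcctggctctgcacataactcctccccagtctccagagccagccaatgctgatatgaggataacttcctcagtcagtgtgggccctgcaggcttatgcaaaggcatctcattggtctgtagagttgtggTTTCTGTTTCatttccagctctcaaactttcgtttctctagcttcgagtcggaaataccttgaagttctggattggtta
The windows were identical at 247 of 340 aligned columns (72.6%). Each window has 300 bases, so some of the 340 columns hold a gap, and those count as not identical. The share therefore understates the likeness of the paired bases. The ISRE core match reads GAAACAGAAA on the opposite strand in both windows. It spans bases 261 to 270 of the Trim12a window and bases 222 to 231 of the Trim12c window. The same core is found in 1131 of 32851 promoter windows of this length (3.44%). The windows of Trim30a, Trim30d and Trim34a also hold it, and those of Trim30b and Trim30c do not. Those of Klra4, Klra7, Aph1b, Acyp2 and Gcnt1 do not hold it either. A match of letters is not a site of binding.

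Other genes of the Trim5 cluster were lower in old p16-/- too. Of 12 listed genes, 10 had a named probe and 9 could be compared between the old arrays. Leaving out Trim12a, which was picked for its difference, 5 of 8 were at least 2-fold lower in old p16-/- and 0 higher, with a median log2 ratio of -1.58. Against young WT, 3 of 7 were lower and 0 higher, with a median of -0.97. With Trim12a the counts were 6 of 9 and 4 of 8, and the first was 5 with normexp. Trim30a read 288.2, 637.4 and 9.46 in young WT, old WT and old p16-/-, and Trim30d read 326.6, 629.7 and 11.8, neither well above background in old p16-/-. Trim34a read 1002, 1808 and 160.1, a log2 ratio of -3.50 between the old arrays, and Trim21, an antibody receptor that is induced by interferon, read 897.8, 1644 and 446.6 (-1.88). Trim34b read 113.8 in old WT alone. Trim68 read 608.1, 633.6 and 705.3, within 2-fold throughout. The signals of Trim30a, Trim30d, Trim34b and Trim68 lay where spots of otherwise dim probes sometimes passed the background mark, given with the spot measurements. So did those of Trim34a and Trim21 in old p16-/-. In old WT against young WT, 3 of 9 were higher (Trim30a, Trim30d and Trim34b), with a median of 0.91, but this count was 0 with normexp background correction and 2 or 3 under the other ways of scaling.

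Markers of the interferon response were, like part of the Trim5 cluster, lower in old p16-/- than in old WT. All 8 genes of an interferon response list were well above background on every array, with summed signals of 26463 in young WT, 105589 in old WT and 7955 in old p16-/-. In old p16-/-, 8 of 8 were at least 2-fold lower than in old WT, with a median log2 ratio of -3.75. In old WT, 8 of 8 were at least 2-fold higher than in young WT, with a median of 1.79. Trim12a did not follow that order between the wild-type arrays, at 5781 and 6198. The part of the interferon response in the Trim values was not tested.

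Wdfy1 was the gene whose probes opposed each other. It encodes a protein that binds phosphatidylinositol 3-phosphate on endosomes and has been described as an adaptor of the Toll-like receptors TLR3 and TLR4. Its 4 probes are assigned to 2 RefSeq transcript records, called A and B here, with 2 probes each. The probes of record A read 5239 ± 524 and 230.3 ± 26.7 in young WT, 1467 ± 147 and 64.1 ± 10.7 in old WT, and 3938 ± 394 and 133.5 ± 17.6 in old p16-/-. Both were lowest in old WT. The probes of record B read 1641 ± 165 and 306.2 ± 33.7 in young WT, 2415 ± 242 and 747.9 ± 75.3 in old WT, and 1055 ± 106 and 208.9 ± 24 in old p16-/-. Both were highest in old WT.

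In log2 ratios of old WT to young WT, the record A probes stood at -1.78 and -1.78 and the record B probes at 0.62 and 1.35. Between old p16-/- and old WT the signs turned, to 1.42 and 1.05 for record A and -1.20 and -1.84 for record B. With normexp the dimmer record A probe dropped under 2-fold there, to 0.62. Between old p16-/- and young WT all 4 probes lay within 2-fold, from -0.73 to -0.36. The array that stood apart for Wdfy1 was therefore old WT, not old p16-/-. The gene's call in the counts above rests on record A, which holds the brightest probe. No probe of Wdfy1 was below background on any array.

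After the Wdfy1 values were seen, 17 genes were found with 2 transcript records of at least 2 probes each, all well above background on both arrays. A gene was counted as split where all probes of 1 record were at least 2-fold one way and all probes of the other lay on the other side of 0. This held in 1 of 17 (5.88%) in old WT against young WT, in 1 of 17 in old p16-/- against old WT and in 0 of 17 in old p16-/- against young WT, and the 1 gene was Wdfy1. Among the 12 listed Wdfy and Toll-like receptor adaptor genes, 2 of 11 were at least 2-fold lower in old WT than in young WT, which were Wdfy1 and Wdfy4. Wdfy4, a gene of immune cells, read 212.7 in young WT and was not well above background on the old arrays.

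**Figure D4:**
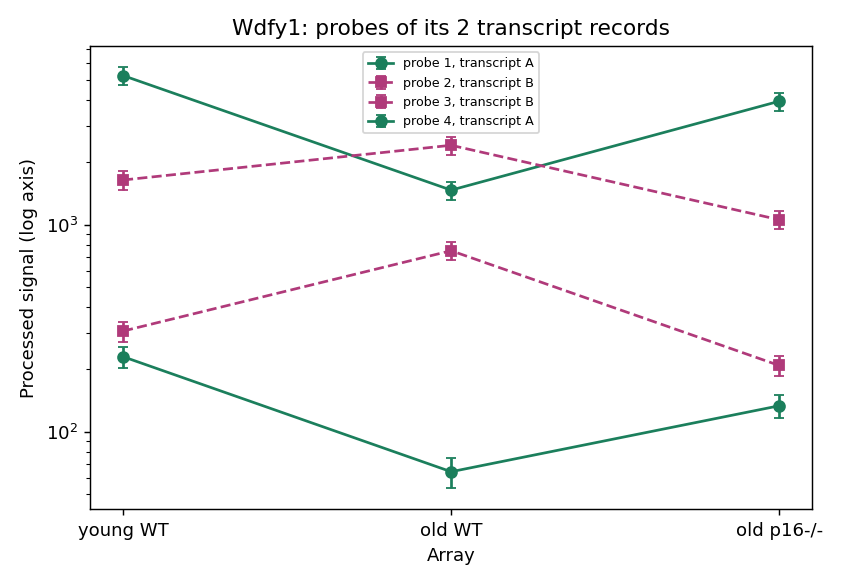
Processed signal (log axis) of the 4 Wdfy1 probes on the 3 arrays, with the scanner software's error. Solid lines join the probes of transcript record A and dashed lines those of record B, the lines only guiding the eye between separate cultures. Record A probes are lowest in old WT (1467 and 64.1) and record B probes are highest there (2415 and 747.9).

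The 2 probes of Aph1b differed in size of change, 1 dropping far and the other staying within 2-fold. It encodes a membrane subunit of gamma-secretase, the protease that cuts Notch receptors and the amyloid precursor protein. The brighter probe read 1585 ± 159 in young WT, 1665 ± 167 in old WT and 83.7 ± 15.7 in old p16-/-, where it was still well above background. It was 20.0-fold lower in old p16-/- than in old WT and 18.2-fold lower than in young WT. With normexp the log2 ratio to old WT was -3.22 in place of -4.32. The dimmer probe read 492 ± 50.9, 495.2 ± 50.2 and 353.2 ± 37 in the same order, a log2 ratio of -0.49 between the old arrays and -0.42 against young WT. Both probes put the wild-type arrays within 2-fold of each other, at 0.13 and 0.07.

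The other measured subunits of gamma-secretase were closer between the arrays than the brighter Aph1b probe was. Of 7 listed genes, 5 had a named probe and 1 was at least 2-fold lower in old p16-/-, which was Aph1b. Aph1a, the alternative subunit to Aph1b, read 7652, 7545 and 6886 in young WT, old WT and old p16-/-. Psen2, one of the catalytic subunits, read 4602, 4723 and 2608. The close paralog Aph1c had no named probe, so a probe that reads both genes was not examined. Of 8 listed substrates and shedding enzymes, Notch1 alone was at least 2-fold apart, with 117.7 in old WT and 604.9 in old p16-/- (a log2 ratio of 2.36) by 1 probe, while its second probe stayed at background.

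Acyp2, the muscle-type acylphosphatase that hydrolyses acylphosphates, had 1 probe. It read 2270 ± 227 in young WT, 2058 ± 206 in old WT and 45.1 ± 10.5 in old p16-/-, the last not well above background. Old p16-/- was at least 44.0-fold lower than old WT and at least 46.5-fold lower than young WT, and the wild-type arrays differed by a log2 ratio of -0.08. With normexp the log2 limit against old WT was -4.23 in place of -5.46. No second probe was there to compare. Acyp1, the other acylphosphatase, read 224.6, 213.4 and 233 in the same order, within 2-fold throughout.

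Gcnt1 builds the core 2 branch on O-linked sugar chains, among them those of selectin ligands. Both of its probes were well above background in wild-type cells and not in old p16-/-. The brighter probe read 1258 ± 126 in young WT, 1542 ± 154 in old WT and 36.4 ± 11.2 in old p16-/-, at least 32.9-fold lower than old WT. The dimmer probe read 138.2 ± 18.1 and 183.8 ± 19.9 on the wild-type arrays and 35.8 in old p16-/-, at least 3.93-fold lower than old WT. The dimmer probe's smaller limit reflects its lower starting signal, since both were below the limit of 46.9 in old p16-/-. With normexp the log2 limits were -3.74 and -1.20 in place of -5.04 and -1.97.

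Of 17 listed O-glycan enzymes and carrier proteins, 15 could be compared. By brightest probes, Gcnt1 was the 1 gene at least 2-fold lower in old p16-/- than in old WT, and 0 were higher. A dimmer probe of Cd44 read 21954, 26219 and 12697 in young WT, old WT and old p16-/-. Its log2 ratio between the old arrays was -1.05, beside -0.72 for the brightest Cd44 probe. Galnt3, which starts O-linked chains, read 232.4 in young WT, 549.3 in old WT and 901.2 in old p16-/-, a log2 ratio of 1.30 between the wild-type arrays. The median log2 ratios of these genes were -0.11 between the old arrays and -0.0064 between old p16-/- and young WT.

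Nnt itself is not analysed here. The genes listed with it, which make mitochondrial NADPH or use it to clear peroxide, were close between the arrays. Of 16 listed, 15 had a probe and 0 were at least 2-fold apart in any comparison by their brightest probe. Their median log2 ratios were -0.05, 0.16 and 0.15 for old WT over young WT, old p16-/- over old WT and old p16-/- over young WT. A dimmer probe of Glrx2, a mitochondrial glutaredoxin, read 244.9 in young WT, 264.8 in old WT and 44.6 in old p16-/-. The last was not well above background, a log2 limit of -2.50 against old WT, while the other Glrx2 probes lay within 2-fold. Idh2, the mitochondrial isocitrate dehydrogenase that makes NADPH, read 28019, 20410 and 29874 in young WT, old WT and old p16-/-.

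Several other genes known to vary between inbred strains were listed beside the 10. Of 18, 11 had a named probe and 9 could be compared between the old arrays, of which 2 were at least 2-fold higher in old p16-/- and 1 was lower. Ifi202b, an interferon-inducible DNA sensor, was not well above background on the wild-type arrays with either probe, and read 12176 in old p16-/- with one probe and 12050 with the other. By the brighter probe that was at least 340-fold above old WT, opposite in direction to the interferon list. Alad, an enzyme of haem synthesis, read 1676, 1400 and 3082 in young WT, old WT and old p16-/- (a log2 ratio of 1.13 between the old arrays). Hc, complement component C5, read 395.3, 241.3 and 106 (-1.19), and with normexp 0 of these genes were lower. In old WT against young WT, 0 of 8 of these genes were at least 2-fold apart by their brightest probes. A dimmer probe of Entpd4 read 174.6 in young WT and 467.7 in old WT, a log2 ratio of 1.48, beside 0.88 for its brightest probe.

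Presence on some arrays and absence on others was rare for bright genes. Of 8950 genes with a signal of at least 1000 on any array, 5 (0.0559%) reached that level in old p16-/- and were not well above background on both wild-type arrays. These were H60b, Gdpd3, Ifi202b, Ifi214 and Scrg1. Another 6 (0.067%) reached it on both wild-type arrays and were not well above background in old p16-/-, namely Acyp2, Ctss, Gcnt1, Ifi211, Itga4 and Trim12a. So 4 of the 9 measured members were among these 11 genes. No gene showed this pattern for old WT alone, or for young WT with old p16-/-. The patterns that set young WT apart held the sex-linked genes, with Ddx3y and Eif2s3y in young WT alone and Xist in both old arrays.

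**Figure D5:**
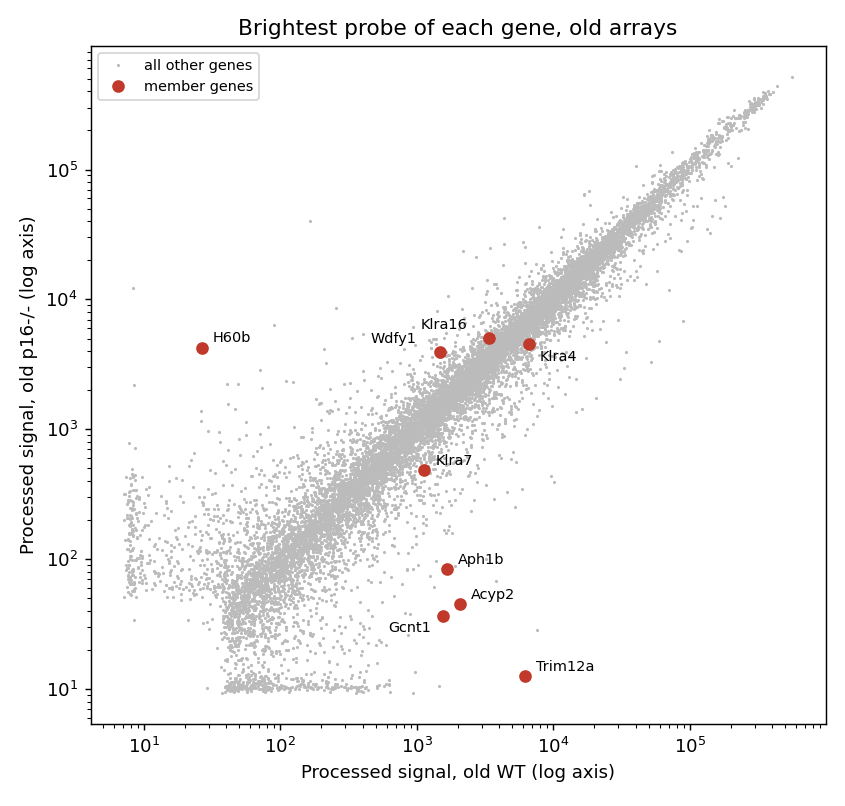
Processed signal of the brightest probe of each gene in old WT and old p16-/- (log axes), over genes well above background on at least 1 of them. Red points are the 9 members with a probe. Trim12a, Acyp2, Gcnt1 and Aph1b lie far below the diagonal, H60b lies far above it, and the Klra genes lie nearer to it.

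Probes of 1 gene did not always agree on these arrays in general. Counting only probes well above background on both arrays, 3375 genes had at least 2 such probes in old p16-/- against old WT. Their log2 ratios differed by 1 or more in 227 genes (6.73%), among them Klra16, Wdfy1 and Aph1b. They differed by 3 or more in 12 (0.356%), among them Wdfy1 and Aph1b, and were 2-fold apart in opposite directions in 8 (0.237%), among them Wdfy1. In old WT against young WT, 6 of 3338 genes (0.18%) differed by 3 or more and 4 (0.12%) were opposed, with Wdfy1 in both counts. Klra16, Trim12a, Aph1b and Gcnt1 were also compared there and their probes differed by less than 1.

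The spots of the members carried no mark of a fault. None of the 57 spots was marked as an outlier, and the local background beside them ranged from 37 to 52. Spots within 3 rows and columns of each (19 to 31 spots) had median log2 ratios from -0.19 to 0.22. The arrays carry 399 probes that are spotted 10 times, whose spots can be compared within an array. Of 1750, 1700 and 1720 spots of those probes with signals of at least 1000, in the order young WT, old WT and old p16-/-, 0 were 2-fold off their probe's median and 0 were not above background. Of 1390, 1290 and 1400 spots of probes that are dim, 66, 81 and 69 passed the background mark, the brightest of them at 694, 794 and 870. The signals of Klra5, Klra6, Ulbp1 and Notch1 in old p16-/- were below 870, and that of H60b was 4244. Several member signals were also below the brightest passing dim spot of their array. On every array these were Klra16 probes 2 and 3, Wdfy1 probes 3 and 4 and Aph1b probe 2. The Klra7 probe with a signal was below it in young WT (231.7) and old p16-/- (486.1). Aph1b probe 1 was below it in old p16-/- (83.7). On the wild-type arrays, Trim12a probe 2 (393.7 and 487) and Gcnt1 probe 2 (138.2 and 183.8) were as well. The repeat spots share an array, so they say nothing of differences between arrays.

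The genes next to each member were examined for differences that extend along the chromosome. Taking up to 5 named genes with a probe on each side gave 82 genes that are not members, and Klra16 was left out because its place in the gene table is not on an ordered chromosome. Between old p16-/- and old WT, 6 of 58 were at least 2-fold higher and 9 lower (25.9%), beside 12.5% of all genes. Between old WT and young WT, 5 of 58 were higher and 2 lower (12.1%), beside 6.12%. The neighbours of Klra4, Klra7 and Trim12a supplied 8 of the 15 between the old arrays. These are Klra and Trim genes except for Styk1, which had a log2 ratio of -1.59. Without the neighbours of Klra4, Klra7 and Trim12a, 4 of 45 were higher and 3 lower there (15.6%), and 2 of 47 were higher and 2 lower between the wild-type arrays (8.51%).

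Around the remaining members, few bright neighbours were apart by their brightest probes. Acyp2 had 6 measured neighbours, of which 0 were at least 2-fold apart in any comparison. Beside Gcnt1, the protease gene Pcsk5 read 2348, 1973 and 594.4 in young WT, old WT and old p16-/-, a log2 ratio of -1.74 between the old arrays. Beside Wdfy1, Ap1s3, a subunit of a clathrin adaptor, read 1007, 839.6 and 2668 (1.66), and Serpine2, a protease inhibitor, read 4310, 7955 and 11326. Beside Aph1b, the tropomyosin gene Tpm1 read 24300, 26755 and 13139 (-1.03). Lactb, also beside Aph1b, lay within 2-fold between the old arrays by its brightest probe (-0.70). Its other probe read 3977, 3647 and 32.6, the last not well above background, a log2 limit of -6.28. Lactb was named after its values were seen. Beside H60b, the kinase gene Sgk1 read 20940, 45209 and 24024. Beside Nnt, the growth factor gene Fgf10 read 171.4 in old WT and 1014 in old p16-/-, and was not well above background in young WT.

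The genes most like each member over the 3 arrays were found by the Euclidean distance between their 3 log2 levels, among 8947 genes with a signal of at least 1000 on any array. Ifi211, an interferon-inducible gene, lay closest to Trim12a at 0.43. Itga4, an integrin subunit, lay closest to Gcnt1 at 0.23, and Ifi27l2b lay closest to Aph1b at 0.25. Gcnt1 lay closest to Acyp2 at 0.95. Ifi214 lay closest to H60b at 0.94, Bmp4 to Klra16 at 0.57, Rgs17 to Klra4 at 0.71, Flrt1 to Klra7 at 0.92 and Olfr1466 to Wdfy1 at 0.61. These distances set the brightness of different probes beside each other, with levels below background held at each array's limit, so they rank likeness of probe signal and not of amount.

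The arrays also differed in ways that touch several members. Of 43020 spots that are not controls, 24682, 26504 and 25110 were well above background in young WT, old WT and old p16-/-, and 0 were saturated. All 8 fibroblast markers were well above background on every array, but not all were level. Thy1 read 69467 in young WT, 52045 in old WT and 3287 in old p16-/-, and Pdgfra read 650.8, 883.7 and 2682. Of 11 macrophage markers, 10, 10 and 2 were well above background, with summed signals of 21043, 5710 and 1919, and the markers not detected in old p16-/- included Adgre1, C1qa and Tyrobp. In old p16-/- against old WT, 7 of the 10 that could be compared were at least 2-fold lower and 1 was higher, Mrc1, at 85.3 in old WT and 399.1 in old p16-/-. Between old WT and young WT, where Trim12a, Klra2, Acyp2 and Gcnt1 lay within 2-fold, 9 of 10 were lower. The part of other cell types in the members' values was not tested. Y-linked genes were well above background in young WT alone and Xist in both old arrays, so these markers of sex split the arrays as age does, and the 2 cannot be told apart. Cdkn2a has 2 probes, and 1 set of values is given here. It read 62705 in young WT, 65464 in old WT and 28065 in old p16-/-. Whether its probes lie in the deleted part is not known, so it does not check the labels. A bulk array cannot tell fewer cells of a type from less RNA per cell.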

How the data were processed

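RNA was measured on 3 Agilent 1-colour (Cy3) mouse arrays, 1 for each of the 3 groups. The deposited scanner files hold linear spot intensity from Feature Extraction 11.5.1.1, with the array design on build mm9, per the file headers. The processed signal is background-subtracted and spatially detrended by the authors' scanner software, per the file headers, and was not scaled between arrays. The deposited series table repeats these intensities, and for each of the 39030 probes with a single spot the values differed by less than 0.0001 of their size. Its column medians were 136.9, 135.2 and 131.9, it was not log-transformed or centred, and it was used as an alternative.

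Control and outlier spots were left out, repeat spots were averaged, log2 was taken and each array's 75th percentile over probes was subtracted (2138, 2051 and 2058 in signal units). Accessions were named through the RefSeq gene table of GRCm38.p6, which named 27508 probes and left 11921 unnamed. Its coordinates were not used for probes, whose design is on another build, and gene order and promoter windows come from GRCm38.p6 alone. With 1 array per group, differences were described by fold, without a test, and calculations were tested on simulated data. Tools were R 4.3.3, limma 3.58.1, Python 3.11.15, numpy 2.4.6, pandas 2.3.3 and Biopython 1.88. The number of arrays limits the precision.

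The members and gene lists were chosen with earlier results of these data known. Named genes were all members, list genes at least 2-fold apart with a few list genes named for contrast after their values were seen, neighbours at least 2-fold apart with a signal of 1000 or more, and the nearest genes by level. Alternatives covered background correction, scaling, filters, the choice of probe and the fold.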

Additional observations from a re-analysis of the deposited data

How the results depend on the processing

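The 3 counts of members at least 2-fold apart (4 in old WT over young WT, 7 in old p16-/- over old WT and 8 in old p16-/- over young WT) were recomputed under 15 alternatives each. Averaging all probes of a gene gave 2 in old WT over young WT. Requiring both arrays well above background gave 3 in old p16-/- over old WT and 4 in old p16-/- over young WT, since that filter removes the genes with a lower limit. Under the other alternatives the counts ranged from 3 to 5, from 5 to 8 and from 6 to 8. Of 350 probe ratios under other corrections and scalings, 0 of those at least 2-fold apart in the main analysis reversed. Changes of sign in smaller ratios were not counted. In all, 5 ratios dropped under 2-fold, all of them with normexp (offset 50) on the median signals, an alternative chosen after seeing the data. These were Klra16 probe 3 (-0.96 and 0.57 for old p16-/- over old WT and over young WT), Wdfy1 probe 4 (0.62 for old p16-/- over old WT), Klra7 probe 1 (0.89) and Gcnt1 probe 2 (-0.89), the last 2 for old p16-/- over young WT, and the cause was not tested. With normexp, ratios moved by up to 1.52 on the log2 scale, and by up to 0.15 under the other corrections and scalings. The planned normexp on mean signals was not run, because the files lack that column. Dim probes are limited by signal over background. No paired analysis was possible because each group has 1 array, and leaving out an array leaves no comparison.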

Other observations

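At the level of probes, 10 of 13110 bright probes were at least 1000 on both wild-type arrays and not well above background in old p16-/-, of which 8 belong to a named gene and 2 to none. A probe of Lactb, the neighbour of Aph1b named above, read 3977, 3647 and 32.6 in young WT, old WT and old p16-/-. The other probe of Lactb, a mitochondrial serine protease-like protein, read 4859, 4515 and 2786. A probe of Ssrp1, a subunit of the histone chaperone FACT, read 1710, 1377 and 41.9, while the gene's other probe read 38615, 33234 and 37454. The 2 probes without a gene name read 6949, 7617 and 15.5 and 1255, 1527 and 62.6. These genes were chosen after their values were seen.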
